A study of Caenorhabditis elegans with 28 samples.

Results

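Mutant and wild-type larvae were compared over the last 4 hours at which the strains could be set side by side at the same developmental point. The comparison used 8 of the 28 libraries of a small RNA time course of Caenorhabditis elegans, namely WT at 25, 26, 27 and 28 h and ebax-1(tm2321) at 28, 29, 30 and 31 h, each mutant library being set against the WT library collected 3 h earlier. These libraries were chosen by strain and hour alone. WT is the strain N2, and the mutant is HW3527, which carries the tm2321 allele of ebax-1 on chromosome IV. Both strains were plated as synchronized L1 larvae at 2000 animals per 10 cm plate and kept at 25 °C without treatment. Every hour from 18 to 31 h 1 library per strain was made from whole animals. The lag of 3 h is the delay the study read from the mRNA of the same time course, and the hour of the WT library is called the matched hour below. The labels name no replicate cultures, so the 4 hours serve as the replicates, p-values measure only the spread of the pair differences between these hours, and the mutation cannot be told apart from the culture it was grown in. The genotypes were taken from the labels, as no mRNA was analysed here.

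EBAX-1, the worm ortholog of mammalian ZSWIM8, is a substrate receptor of a Cullin-RING ubiquitin ligase. In mammals and flies this ligase takes part in target-directed miRNA degradation. There a target RNA that pairs extensively with a miRNA marks the Argonaute protein carrying it for destruction, which exposes the miRNA to nucleases. The study states that no such RNA has been defined in the worm and that the rules may differ there. Earlier work it cites found that decay of miR-35 requires the seed, a short stretch near the 5′ end, but not the 3′ end. A miRNA hairpin yields a 5p and a 3p arm, and the guide, which is retained in Argonaute, usually far exceeds the passenger, which is discarded. In the following, the guide of a hairpin is its more abundant arm in the 4 WT libraries. For miR-41, miR-42, miR-43, miR-49, miR-230, miR-241, miR-255, miR-788 and miR-790 this is the opposite of the arm the study takes as guide. In whole animals, a lower level from fewer cells that contain a miRNA and one from less of it in each cell cannot be told apart.

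The 8 libraries held 4970366 to 11683557 counts, and 312 to 346 of 437 annotated arms had a read in each. Totals in the mutant were 5055100, 4970366, 7041781 and 6125674 counts at 28, 29, 30 and 31 h, and those of 28, 29 and 31 h are the shallowest of the mutant series. These 3 libraries also stood low in 2 arms. The mirtron miR-62 read 301, 647, 1901 and 754 normalised counts in the 4 mutant libraries against at least 1869.5 in every late WT library, and miR-58a-3p, among the most abundant miRNAs of the worm, read 557682, 609198, 1268106 and 865494 against at least 966009. The mutant library of 30 h, the deepest of the 4, thus read near or above the WT minimum in both. Values of the pair that contains it (matched hour 27) are therefore given beside the results below. Values under the late WT minimum also occurred outside the window and in a deeper library, but none were as low as those of 28 and 29 h. The mutant library of 24 h, with 9733557 counts, read 1235 for miR-62 and 865744 for miR-58a-3p. Normalised counts are counts scaled to the mean library total, and an arm without a read may still hold up to 3 counts, 2.15 to 5.04 normalised counts in these libraries, a limit that covers counting error only.

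Of the 384 arms with a read in the 8 libraries, 92 (24.0%) differed between the strains, 35 of them higher in ebax-1(tm2321) (9.11%) and 57 lower (14.8%), by limma on the deposited log2 values with matched hour as a block, at a Benjamini-Hochberg adjusted p under 0.05. All 92 had 1 sign in 4 of 4 pairs, and 17 of the higher and 23 of the lower arms differed at least 2-fold. By role, 22 of 226 guides were called higher and 41 lower, and 13 of 158 passengers higher and 16 lower. Counts for families and lists below stand against these shares. In 27 of the 35 higher and 43 of the 57 lower arms, the 4 values of the strains did not overlap, as in 95 (24.7%) of all arms tested. Without the pair of matched hour 26 the number of calls was 44, without that of hour 28 it was 51, and 41 calls (17 higher, 24 lower) were kept in each of the 4 fits that left out a pair. An added fit of matched hour 27 alone took the spread from the other 10 matched hours. Its differences are the pair differences of that hour, so the direction of the 92 calls there repeats the signs given above. Read at equal clock hours, without the lag, the calls were 17 higher and 48 lower, and 43 of the 92 were called there too. The split between higher and lower calls was 50 to 41 with DESeq2 size factors in place of the library total. The called higher arms together took 9.55% to 11.8% of the counts of a WT library and 17.8% to 20.9% of a mutant one. The called lower arms took 16.9% to 17.9% and 9.66% to 11.4%. Both sets were picked by their difference in these same libraries. Every library is scaled to its total, so a gain in some arms lowers the share left to others. The part of this in the decreases was not tested. The median difference of all arms was -0.11 on the log2 scale.

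**Figure D1:**
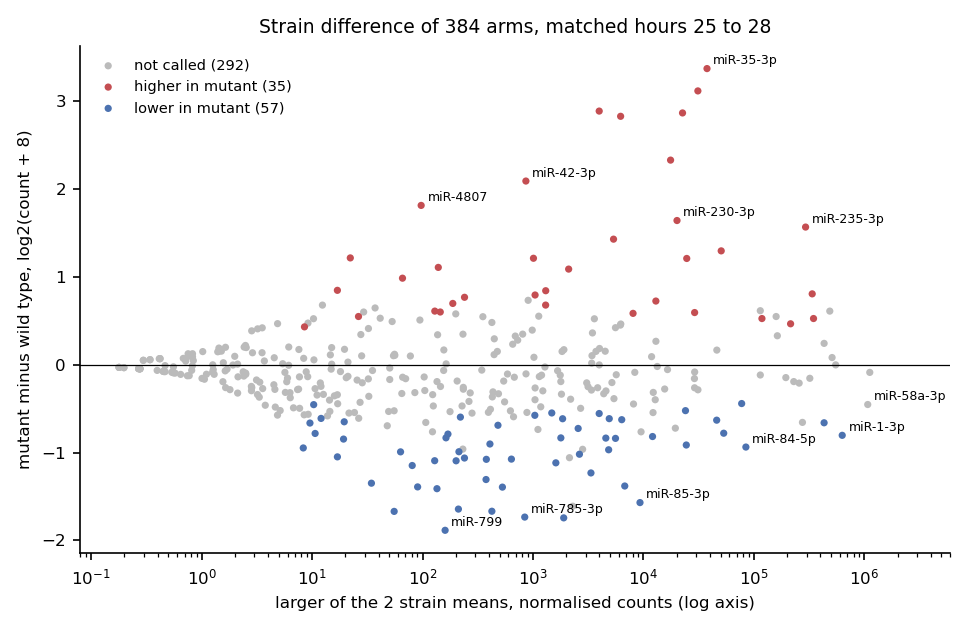
Strain difference of each of the 384 arms tested over matched hours 25 to 28 (vertical axis, mutant minus wild type, log2 of normalised count plus 8) against the larger of the 2 strain means (horizontal log axis, normalised counts). The 35 called higher arms (red) reach 3.37 for miR-35-3p, and the 57 called lower arms (blue) reach -1.89 for miR-799, while miR-58a-3p, near the right edge, was not called.

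The mir-35 family, which is essential for embryonic development and is normally cleared as embryos hatch, contributed the 7 largest increases among arms averaging 50 or more normalised counts. miR-35-3p stood at 3989, 3455, 3125 and 3393 normalised counts in WT and at 55010.2, 40604, 26557 and 28468 in ebax-1(tm2321) (values are given in the order of the 4 hours throughout). Every mutant value exceeded the highest WT value by a wide margin. The log2 difference was 3.37 ± 0.16 (SE; limma adjusted p = 0.000118), a 10.3-fold increase, and the mean level was 3491 ± 362 in WT and 37659.7 ± 13133 in ebax-1(tm2321) (SD, n = 4 hours). miR-37-3p stood at 3966, 3553, 3276 and 3281 normalised counts in WT and at 41323, 32309, 25465 and 25423 in ebax-1(tm2321), a difference of 3.12 ± 0.13 (8.67-fold). Both arms were highest in the mutant library of 28 h while the WT values moved little. miR-40-3p stood at 644, 471, 442 and 531 normalised counts in WT and at 5408, 4173, 3414 and 2918 in ebax-1(tm2321), a difference of 2.89 ± 0.15 (7.40-fold), with the same peak at 28 h.

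miR-39-3p stood at 3959, 2775, 2911 and 2742 normalised counts in WT and at 23927, 20313, 27463 and 18722 in ebax-1(tm2321), a difference of 2.87 ± 0.14 (7.29-fold). miR-38-3p stood at 946, 855, 834 and 789 normalised counts in WT and at 6365, 5434, 8067 and 5008 in ebax-1(tm2321), a difference of 2.83 ± 0.15 (7.10-fold). miR-36-3p stood at 4112, 3640.1, 3257 and 2931 normalised counts in WT and at 16704, 15440.1, 22615 and 15719 in ebax-1(tm2321), a difference of 2.33 ± 0.16 (5.02-fold). These 3 arms were highest in the mutant library of 30 h, where miR-35-3p was lowest and miR-37-3p and miR-40-3p were past their peak, so the ratio between family members was not constant across the mutant libraries. Reads of near-identical members may be divided between them by the alignment, which would touch such ratios. Over the 6 arms the limma adjusted p ran from 0.000118 to 0.000545, and all 6 calls were kept in each fit that left out a pair and at matched hour 27 alone, where the differences were 3.08, 2.79, 2.96, 3.26, 3.23 and 2.93 from miR-35-3p to miR-40-3p. Together the 3p arms of the family made up 0.166% to 0.213% of the counts in WT and 1.16% to 1.79% in the mutant.

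**Figure D2:**
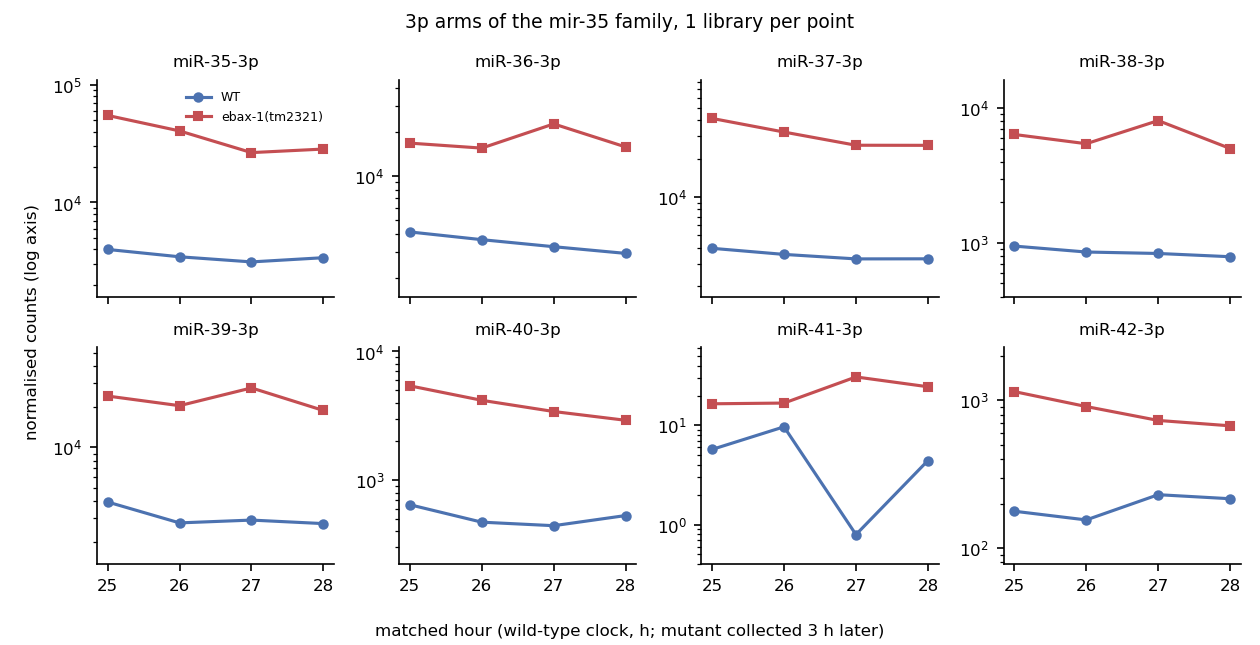
Level of the 8 mir-35 family 3p arms in each late library (vertical log axis, normalised counts) by matched hour (horizontal axis, h), WT as blue circles and ebax-1(tm2321) as red squares, 1 library per point and lines only joining hours. Every mutant point lies above every WT point of the same arm, and miR-36-3p, miR-38-3p, miR-39-3p and miR-41-3p peak in the mutant library of 30 h at matched hour 27.

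The other family members were rarer and the call covered their 3p arms as well. miR-42-3p stood at 177, 155, 229 and 216 normalised counts in WT and at 1144, 906, 729.9 and 671 in ebax-1(tm2321), a difference of 2.09 ± 0.22 (4.26-fold, limma adjusted p = 0.00207). miR-41-3p stood at 5.72, 9.68, 0.791 and 4.42 normalised counts in WT and at 16.5, 16.8, 30.9 and 24.6 in ebax-1(tm2321), a difference of 1.22 ± 0.28 (limma adjusted p = 0.0271) whose WT values lie near the counting limit and whose call was lost without matched hour 28 (adjusted p = 0.0883). In both of these hairpins WT held more of the 5p arm, so 6 of the 8 guides and 3 of the 8 passengers of the family were called higher and none lower, with a median guide difference of 2.85 against -0.14 over all guides and a median passenger difference of 0.11 against -0.08 over all passengers. Counted by arm, 8 of 8 3p arms and 1 of 8 5p arms were called higher, the latter that of miR-37. miR-37-5p stood at 64.4, 49.5, 48.3 and 75.2 normalised counts in WT and at 164, 108, 104 and 180.1 in ebax-1(tm2321), a difference of 1.11 ± 0.11 (limma adjusted p = 0.00205), and the values of the strains did not overlap. The hairpins miR-35 to miR-41 lie in a single cluster on chromosome II (11537608 to 11538404, WBcel235) within the span of Y62F5A.9 on the opposite strand. The study described the rise of this family in the same samples, and its list therefore gives no independent support for that direction.

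miR-42 itself is encoded with miR-43 and miR-44 in a second cluster of chromosome II (11889811 to 11890118), outside any annotated protein-coding gene. There the 2 arms of a hairpin diverged. miR-43-3p stood at 509, 389, 401 and 328 normalised counts in WT and at 605, 787, 1654 and 996 in ebax-1(tm2321), a difference of 1.21 ± 0.29 (limma adjusted p = 0.0312). miR-43-5p stood at 257, 384, 508 and 779 normalised counts in WT and at 122, 264, 411 and 412 in ebax-1(tm2321), a difference of -0.69 ± 0.16 (limma adjusted p = 0.0276). The 3p arm was higher and the 5p arm lower in the mutant in 4 of 4 pairs, though the 5p call was lost at a lag of 4 h (adjusted p = 0.328). The 3p call was lost without matched hours 26, 27 or 28 (adjusted p = 0.0684, 0.0761 and 0.106). miR-44-3p was higher by 0.53 ± 0.11 (limma adjusted p = 0.0224). Its reads cannot be separated here from those of miR-45-3p, whose near-identical mature sequence gave a constant ratio to it in all 8 libraries and the same difference (0.53 ± 0.11), so both count as 1 measurement. Leaving out matched hour 26 ended the calls of miR-43-5p and miR-44-3p (adjusted p = 0.0768 and 0.123), leaving out hour 27 that of miR-44-3p (0.054), and leaving out hour 28 those of miR-43-5p and miR-44-3p (0.107 and 0.0705).

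Outside these clusters the largest increases were those of 6 guides with diverse roles. miR-235, the worm member of the conserved miR-92 family, acts in the developmental arrest of starved larvae. miR-235-3p stood at 145884, 107823, 87595 and 70119.7 normalised counts in WT and at 318434, 289857, 284801 and 283007 in ebax-1(tm2321). The WT level fell through the window while the mutant level held, so that the pair difference widened from 1.13 at matched hour 25 to 2.01 at hour 28, with a mean of 1.57 ± 0.17 (2.96-fold, limma adjusted p = 0.00216). miR-230-3p stood at 4518, 6892, 6507 and 8563 normalised counts in WT and at 20581, 20345, 19802 and 19857 in ebax-1(tm2321). All mutant values lay within a narrow band, above every WT value, with a difference of 1.64 ± 0.18 (limma adjusted p = 0.00216). miR-34-5p stood at 18400.0, 21416, 19743 and 22673 normalised counts in WT and at 41856, 53347, 51340.3 and 55971 in ebax-1(tm2321). miR-34, which responds to genotoxic stress in several animals, was higher by 1.30 ± 0.11 (2.46-fold, limma adjusted p = 0.00105), again with no overlap.

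miR-253-3p stood at 1623, 1948, 2017 and 2141 normalised counts in WT and at 7064, 6224, 3647 and 4521 in ebax-1(tm2321), a difference of 1.43 ± 0.23 (limma adjusted p = 0.0093). miR-4807 stood at 25.0, 33.3, 14.2 and 16.6 normalised counts in WT and at 66.1, 111, 98.5 and 113 in ebax-1(tm2321), a difference of 1.81 ± 0.23 (limma adjusted p = 0.00335). miR-243-3p stood at 10074, 10096, 8619 and 11116 normalised counts in WT and at 33446, 28387, 11661 and 25228 in ebax-1(tm2321), a difference of 1.21 ± 0.23 (limma adjusted p = 0.0142). miR-243, which in the worm is loaded largely into the Argonaute RDE-1 and guides the slicing of a target mRNA, was near WT in the mutant library of 30 h alone, and its pair difference there was 0.43 against 1.73, 1.49 and 1.18 in the other pairs. Its call was lost without matched hours 26 or 28 (adjusted p = 0.0552 and 0.0512). miR-253-3p also was lowest in that library, and the calls of miR-253-3p and miR-4807 were kept in each fit that left out a pair. The hairpins of miR-230, miR-34 and miR-4807 lie on chromosome X outside annotated protein-coding genes (miR-230 at 5803892 to 5803989, miR-34 at 2969752 to 2969848, miR-4807 at 1872466 to 1872526), that of miR-253 on chromosome V (5780510 to 5780616) within F44E7.5, and that of miR-243 on chromosome IV (4450779 to 4450876) within R08C7.12, both on the strand of their host gene.

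Besides miR-235, the study ties miR-71, miR-788 and miR-247 to EBAX-1, the latter pair in a later time course not analysed here. miR-71 promotes longevity in the worm. miR-71-5p stood at 214873, 350572, 351172 and 378997 normalised counts in WT and at 462854, 576176, 402751 and 506288 in ebax-1(tm2321). The 4 mutant values exceeded all WT values, but the difference of 0.61 ± 0.17 did not pass (limma adjusted p = 0.0542). Its passenger moved the other way. miR-71-3p stood at 6077, 6219, 5678 and 4378 normalised counts in WT and at 3629, 3455, 2956 and 2465 in ebax-1(tm2321), a difference of -0.84 ± 0.11 (limma adjusted p = 0.00401) with no overlap, kept in each fit that left out a pair. miR-788-3p stood at 2506, 2620.4, 2421 and 2716 normalised counts in WT and at 2361, 1464, 1089 and 1517 in ebax-1(tm2321), a difference of -0.73 ± 0.19 (limma adjusted p = 0.0415), and this decrease did not pass with TMM factors (adjusted p = 0.115) nor without matched hours 26, 27 or 28 (adjusted p = 0.133, 0.104 and 0.135). Its other arm, miR-788-5p, was lower by 0.55 ± 0.12 (limma adjusted p = 0.0228). miR-247-3p stood at 2194, 1695, 1662 and 1515 normalised counts in WT and at 969, 1537, 2514 and 1791 in ebax-1(tm2321). The strains overlapped, and the difference of -0.12 ± 0.29 did not pass (limma adjusted p = 0.769). In this list 1 of 4 guides was thus called higher and 1 lower, and 2 passengers lower. miR-788-5p failed the threshold when matched hours 25, 26 or 28 were left out (adjusted p = 0.0508, 0.121 and 0.098). The tally is the same with miR-788-5p as guide. The study chose this list partly on these samples, so it is not independent evidence.

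Called decreases numbered 57 against 35 increases, an order that turned to 41 against 50 with DESeq2 size factors and to 52 against 54 with DESeq2's Wald test. The median size of the called differences was 0.91 for decreases and 0.98 for increases, and the 10 largest decreases involved arms of low or moderate level. miR-799 stood at 197, 147, 177 and 119 normalised counts in WT and at 39.7, 21.9, 66.5 and 30.0 in ebax-1(tm2321), a difference of -1.89 ± 0.19 (3.69-fold lower, limma adjusted p = 0.00205). miR-785-3p stood at 684, 776, 882 and 1029 normalised counts in WT and at 273, 220.3, 239 and 249.7 in ebax-1(tm2321), a difference of -1.74 ± 0.15 (3.33-fold lower, limma adjusted p = 0.00108). Neither overlapped between the strains, and miR-785-3p was flat in the mutant while it rose in WT. miR-1020-3p stood at 473, 433, 419 and 374 normalised counts in WT and at 97.5, 138, 184 and 106 in ebax-1(tm2321), a difference of -1.67 ± 0.18 (limma adjusted p = 0.00222). miR-1020, whose hairpin is a spliced intron and so bypasses Drosha, also was lower in its passenger arm, with values of 1.65, 1.68, 5.93 and 6.82 normalised counts against 15.7, 24.7, 17.4 and 9.95 in WT. The mutant values of 28 and 29 h lie under the counting limit of their libraries.

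miR-85-3p stood at 4662, 7631, 10088 and 14871 normalised counts in WT and at 1059.7, 2473, 4301 and 6036 in ebax-1(tm2321). WT and mutant both rose steeply over the window and the ranges overlapped, but the mutant was lower in each pair, by 1.57 ± 0.18 (limma adjusted p = 0.00241). The size of this difference therefore rests on the lag, being -1.03 at a lag of 4 h and -2.16 at 2 h. miR-8196a-3p stood at 190.3, 200.1, 235.0 and 219.9 normalised counts in WT and at 47.9, 70.6, 77.1 and 55.9 in ebax-1(tm2321), a difference of -1.64 ± 0.13 (limma adjusted p = 0.000921). miR-795-3p stood at 587, 509.9, 512 and 507 normalised counts in WT and at 229.8, 230.3, 151 and 184 in ebax-1(tm2321), a difference of -1.39 ± 0.14 (limma adjusted p = 0.00179). Both were far apart between the strains, and miR-795-3p was lowest at 30 h, in the deepest mutant library. miR-2210-5p stood at 50.8, 45.2, 51.4 and 74.1 normalised counts in WT and at 16.5, 6.73, 15.4 and 9.55 in ebax-1(tm2321), a difference of -1.67 ± 0.19 (limma adjusted p = 0.00241). miR-392-3p stood at 83.0, 81.8, 98.1 and 98.4 normalised counts in WT and at 18.2, 23.5, 49.8 and 32.7 in ebax-1(tm2321), a difference of -1.39 ± 0.17 (limma adjusted p = 0.00335). Neither overlapped between the strains. These 5 calls and those of miR-799, miR-785-3p and miR-1020-3p were kept in each fit that left out a pair. At matched hour 27 alone, the fit kept miR-785-3p, miR-1020-3p, miR-8196a-3p, miR-2210-5p and miR-795-3p.

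**Figure D3:**
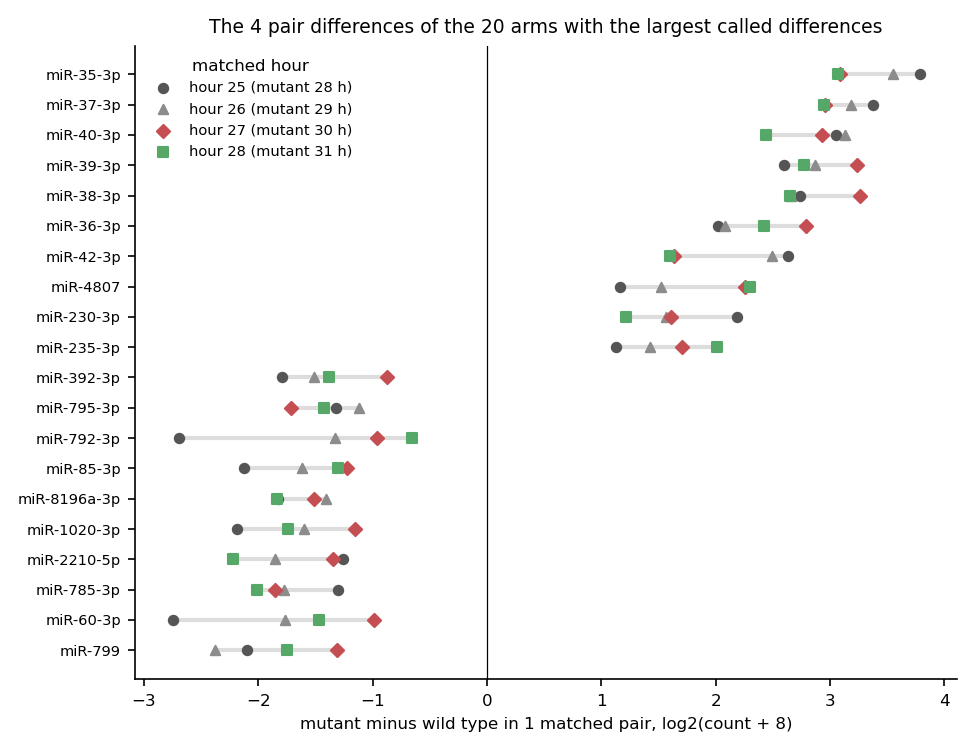
The 4 pair differences (horizontal axis, mutant minus wild type, log2 of normalised count plus 8) of the 10 arms with the largest called increases and the 10 with the largest called decreases. Symbols mark the matched hour, red diamonds being hour 27 with the deepest mutant library. All points keep the side of their arm, and for miR-60-3p, miR-85-3p, miR-799, miR-392-3p and miR-1020-3p the red diamond lies nearest to 0.

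Several decreases were smallest in the pair of the mutant library of 30 h, among them those of miR-60-3p, miR-79-3p and miR-786-3p. miR-60-3p stood at 2335, 1666, 1968 and 1624 normalised counts in WT and at 341, 484, 985 and 581 in ebax-1(tm2321). miR-60 is a marker of the intestine, and its difference of -1.74 ± 0.28 (limma adjusted p = 0.0093) ranged from -2.75 at matched hour 25 to -0.99 at hour 27. miR-79-3p stood at 7624, 7026, 7543 and 4918 normalised counts in WT and at 1247, 2214, 5656 and 2738 in ebax-1(tm2321), a difference of -1.38 ± 0.36 (limma adjusted p = 0.0399). miR-79, which shapes protein glycosylation in the epidermis, overlapped between the strains at 30 h only, with a pair difference of -0.41, and its call was lost without matched hours 26 or 28 (adjusted p = 0.114 and 0.0688). miR-786-3p stood at 312, 353, 428 and 411 normalised counts in WT and at 76.0, 104, 278 and 201 in ebax-1(tm2321), a difference of -1.31 ± 0.24 (limma adjusted p = 0.0138, -0.61 at hour 27) for a miRNA that sets calcium rhythms of the intestine. miR-792-3p stood at 151, 134, 154 and 102 normalised counts in WT and at 16.5, 48.8, 74.8 and 61.4 in ebax-1(tm2321), a difference of -1.41 ± 0.34 (limma adjusted p = 0.0307) that was smallest at matched hour 28 (-0.66) and was lost without matched hours 26 or 27 (adjusted p = 0.0711 and 0.0564). Among the 57 called lower arms, the highest mutant value was that of 30 h in 21, of 28 h in 16, of 31 h in 14 and of 29 h in 6. Among the 35 called higher arms, the lowest mutant value was that of 30 h in 12, of 28 h in 7, of 31 h in 10 and of 29 h in 6. These counts compare the mutant libraries alone, without the paired WT value. The median pair difference of the lower arms was -1.14, -0.96, -0.82 and -0.80 at matched hours 25, 26, 27 and 28, and that of the higher arms 0.87, 0.95, 0.999 and 0.94. The part of depth and of library quality in these differences was not tested, beyond thinning all libraries to 4970366 counts, which gave 97 calls. Leaving out matched hour 26 ended the call of miR-786-3p (adjusted p = 0.050001).

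The heterochronic miRNAs time the transitions between larval stages. Within the let-7 family, whose members let-7, miR-48, miR-84 and miR-241 act in the epidermis, 0 guides were called higher and 3 of 7 lower, with a median guide difference of -0.28. Over all 226 guides, 22 were called higher and 41 lower, with a median of -0.14. miR-84-5p stood at 81231, 84046, 83355 and 90181 normalised counts in WT and at 44825, 44871, 43089.8 and 44000.5 in ebax-1(tm2321). Both strains were flat over the window and did not overlap, at a difference of -0.94 ± 0.11 (1.92-fold lower, limma adjusted p = 0.00241). miR-793 stood at 4997, 4519, 4501 and 4254 normalised counts in WT and at 3885, 2819.7, 1904 and 2030.0 in ebax-1(tm2321), a difference of -0.84 ± 0.17 (limma adjusted p = 0.0212). miR-794-5p was lower by 0.58 ± 0.16 (limma adjusted p = 0.0442). The calls of miR-793 and miR-794-5p did not pass with TMM factors (adjusted p = 0.06 and 0.132) and were each kept in only 1 of the 4 fits that left out a pair. let-7-5p stood at 125479.7, 124068, 119649 and 133479.7 normalised counts in WT and at 199868, 198383, 103242 and 151303 in ebax-1(tm2321). These values overlapped, the mutant library of 30 h being the lowest of all, and the difference of 0.33 ± 0.19 did not pass (limma adjusted p = 0.253). The guides of miR-48, miR-241 and miR-795 did not pass either. Of the 6 passengers tested 1 was called higher and 2 lower. The lower ones were miR-795-3p, described above, and miR-794-3p, which lies near the counting limit with 4.29, 8.61, 12.7 and 7.74 normalised counts in WT and 0, 0, 0 and 1.36 in ebax-1(tm2321). The higher one was the passenger of miR-48. miR-48-3p stood at 1236, 992, 764 and 976 normalised counts in WT and at 2561, 1924, 1856 and 2078 in ebax-1(tm2321), a difference of 1.09 ± 0.12 (limma adjusted p = 0.00207) with no overlap.

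The lin-4 family, which drives the early larval transitions through lin-14 and lin-28, was higher in 1 of 2 guides and both passengers, with a median guide difference of 0.58. Over all arms, 22 of 226 guides and 13 of 158 passengers were called higher. miR-237-5p stood at 217900.4, 194782, 181988 and 177697 normalised counts in WT and at 375288, 328117, 340020.0 and 306530.0 in ebax-1(tm2321), a difference of 0.81 ± 0.11 (1.75-fold, limma adjusted p = 0.00447) with no overlap. Its passenger miR-237-3p rose with time in both strains and was higher by 0.79 ± 0.12 in the mutant (limma adjusted p = 0.00815). lin-4-5p stood at 3713, 2556, 2274 and 2291 normalised counts in WT and at 3968, 3039.9, 4075 and 2745 in ebax-1(tm2321), a difference of 0.36 ± 0.16 that did not pass (limma adjusted p = 0.147) although the mutant was higher in each pair. lin-4-3p stood at 35.8, 12.9, 26.1 and 51.9 normalised counts in WT and at 66.1, 53.8, 61.7 and 81.9 in ebax-1(tm2321), a difference of 0.98 ± 0.18 (limma adjusted p = 0.0142). The calls of lin-4-3p and miR-237-3p depended on the hours compared and were lost at a lag of 2 h (adjusted p = 0.828 and 0.346), as was that of miR-237-5p (0.0734). Leaving out matched hour 26 ended the call of miR-237-3p (adjusted p = 0.051).

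Markers of single tissues were mostly lower or did not pass. miR-1, the conserved muscle miRNA, is the most abundant arm that differed. miR-1-3p stood at 602359, 598641, 625553 and 697699 normalised counts in WT and at 372707, 367525, 347938 and 354611 in ebax-1(tm2321). The mutant values were tightly grouped below all WT values, at a difference of -0.80 ± 0.11 (1.75-fold lower, limma adjusted p = 0.00602), and the call was kept at matched hour 27 alone. lsy-6-3p stood at 161, 124, 104 and 127 normalised counts in WT and at 39.7, 48.8, 62.9 and 76.4 in ebax-1(tm2321). lsy-6, which sets the left and right identity of a pair of taste neurons, was lower by 1.09 ± 0.22 (limma adjusted p = 0.0194). miR-228-5p stood at 73775, 76116, 69776 and 64238 normalised counts in WT and at 171045, 126166, 76345 and 83965 in ebax-1(tm2321). For this miRNA of glia the mutant was higher in each pair, without overlap, yet the difference of 0.61 ± 0.20 did not pass (limma adjusted p = 0.071). Among 10 guides in the tissue lists (3 of neurons, 4 of epidermis shared with the let-7 family, and 1 each of muscle, intestine and glia), 0 were called higher and 4 lower, against 22 and 41 of all 226 guides. Among their passengers miR-48-3p, given above, and miR-791-3p were called higher and none lower, the latter by 0.77 ± 0.18 (limma adjusted p = 0.0307), a call lost without matched hours 26 or 28 (adjusted p = 0.0805 and 0.0757). The call of lsy-6-3p was lost without matched hour 26 (adjusted p = 0.0669).

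The mir-51 family, related to miR-100 of other animals and needed in the embryo, held guides that moved in opposite directions. miR-51-5p stood at 9554, 7166, 6427 and 7975 normalised counts in WT and at 17405, 12594, 11009.8 and 10861 in ebax-1(tm2321), a difference of 0.72 ± 0.12 (limma adjusted p = 0.0106) with no overlap. miR-54-3p was higher by 0.59 ± 0.13 (limma adjusted p = 0.0249) and miR-55-3p lower by 0.63 ± 0.11 (limma adjusted p = 0.0108), while the guides of miR-52, miR-53 and miR-56 did not pass. The median over the 6 guides was 0.13. In the bantam-related mir-58 family, 1 of 5 guides was called. miR-80-3p was lower by 0.63 ± 0.12 (limma adjusted p = 0.0142), which missed the threshold with TMM factors (adjusted p = 0.052). The guide miR-58a-3p had a difference of -0.45 ± 0.24 that did not pass (limma adjusted p = 0.226), being lower in 3 pairs and higher by 0.34 in the pair of matched hour 27, whereas its passenger miR-58a-5p was higher by 0.58 ± 0.13 (limma adjusted p = 0.025). The passengers miR-81-5p and miR-80-5p were lower by 0.90 ± 0.18 and 0.61 ± 0.13 (limma adjusted p = 0.0182 and 0.0226). miR-81-5p failed the threshold without matched hours 26 or 28 (adjusted p = 0.0653 and 0.0699) and miR-80-5p without hours 26, 27 or 28 (0.0684, 0.0552 and 0.0691). Leaving out matched hour 26 ended the calls of miR-51-5p, miR-54-3p, miR-55-3p, miR-80-3p and miR-58a-5p (adjusted p = 0.0669, 0.127, 0.0684, 0.0711 and 0.123), leaving out hour 27 that of miR-58a-5p (0.0646), and leaving out hour 28 those of miR-54-3p, miR-55-3p, miR-80-3p and miR-58a-5p (0.0705, 0.0622, 0.0705 and 0.0933).

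In the mir-63/64 family 2 of 5 guides were called, both lower, with a median of -0.66. Over all 226 guides, 41 were called lower and the median was -0.14. miR-63-3p stood at 24209, 26065, 26752 and 20779.6 normalised counts in WT and at 11587, 11627, 15533 and 13262 in ebax-1(tm2321), a difference of -0.91 ± 0.14 (limma adjusted p = 0.00684) with no overlap. miR-229-5p stood at 61985, 48415, 51573 and 51430.1 normalised counts in WT and at 28855, 29811, 37581 and 28294 in ebax-1(tm2321), a difference of -0.78 ± 0.14 (limma adjusted p = 0.0138), smallest in the pair of matched hour 27 (-0.46). miR-229 lies within gcn-1 on chromosome III (2172452 to 2173206) with miR-64, miR-65 and miR-66, none of whose arms was called. Of the family's 5 passengers miR-63-5p was lower, by 0.56 ± 0.13 (limma adjusted p = 0.0264), a call kept in 1 of the 4 fits. In the mir-44 family 3 of 4 guides were called higher, against 22 of all 226 guides. Of these 3, miR-44-3p and miR-45-3p count as 1 measurement, as above, and the other, miR-61-3p, was higher by 0.47 ± 0.11 (limma adjusted p = 0.0307). In the mir-72 family the guide miR-74-3p was lower by 0.97 ± 0.20 (limma adjusted p = 0.0198) and the passengers miR-74-5p and miR-72-3p were higher by 0.68 ± 0.11 and 0.84 ± 0.14 (limma adjusted p = 0.00931 and 0.0093). In the mir-2 family 1 of 4 guides was called, the lower miR-43-5p, and of the passengers miR-43-3p was higher, as given above, and miR-2-5p lower by 1.02 ± 0.17 (limma adjusted p = 0.0093). The study takes miR-43-3p as the guide of miR-43, and with that arm the 1 called guide of this family would be higher, not lower. The call of miR-61-3p was lost without matched hour 25 (adjusted p = 0.063), those of miR-229-5p, miR-61-3p, miR-74-3p and miR-74-5p without hour 26 (0.0562, 0.153, 0.0684 and 0.050001), and those of miR-229-5p, miR-61-3p, miR-74-3p and miR-74-5p without hour 28 (0.0612, 0.136, 0.0691 and 0.0539).

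Among mirtrons, miR-1020-3p and miR-1019-5p were lower (the latter by 0.78 ± 0.19, limma adjusted p = 0.0307) and miR-1018 higher by 0.60 ± 0.14 (limma adjusted p = 0.0311), a call kept in 0 of the 4 fits that left out a pair. The mirtron miR-62 had the values given above, and its difference of -1.61 ± 0.49 did not pass (limma adjusted p = 0.0605), with pair differences between -3.32 at matched hour 25 and -0.06 at hour 27. Of the 3 miRNAs that rise late in WT, miR-358-3p alone was called, lower by 0.99 ± 0.20 (limma adjusted p = 0.0179), and not at a lag of 4 h (adjusted p = 0.367). Arms that averaged 10000 or more normalised counts in a strain numbered 52 and had differences from -0.94 (miR-84-5p) to 3.37 (miR-35-3p). Of these, 14 were called higher and 9 lower, against 35 and 57 of all 384 arms. Among the 9 was miR-70-3p, lower by 0.66 ± 0.16 (limma adjusted p = 0.0325), a call kept in 0 of the 4 fits. Leaving out matched hour 26 ended the calls of miR-358-3p and miR-1019-5p (adjusted p = 0.0614 and 0.0684), leaving out hour 27 that of miR-1019-5p (0.0791), and leaving out hour 28 that of miR-1019-5p (0.0513).

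Because both arms of a hairpin come from 1 precursor, their ratio was compared next. Of 94 hairpins with a mean of 10 or more normalised counts in each arm, 33 (35.1%) differed in the ratio of guide to passenger, 15 higher and 18 lower in the mutant (limma on the log2 ratio with matched hour as a block). Without matched hours 26 or 28 the count was 18 or 21. The guide was picked by level in the same 4 WT libraries, which can tilt hairpins with near-equal arms toward a lower ratio in the mutant. Every ratio given here and below is that of normalised counts plus 8 in both arms, averaged over the hours of a strain on the log2 scale. Where the guide far exceeds a rare passenger, this value lies below the ratio of the normalised counts themselves. The 5 largest increases were those of mir-35 family hairpins, whose guides rose as described. The ratio rose from 124 to 1255 in miR-35 (3.34 ± 0.22, limma adjusted p = 0.000119), from 26.4 to 246 in miR-40 (3.23 ± 0.37), from 24.3 to 224 in miR-39 (3.21 ± 0.25), from 61.7 to 449 in miR-36 (2.86 ± 0.28) and from 52.9 to 213 in miR-37 (2.01 ± 0.19). In the first 4 the passenger did not pass, and in miR-37 it was higher with the guide. The ratio also rose from 5832 to 15988 in miR-235 (1.46 ± 0.34, limma adjusted p = 0.016), where the passenger had at most 39.7 normalised counts and the call was lost without matched hours 26 or 28 (adjusted p = 0.0723 and 0.0869), and from 57.1 to 156 in miR-71 (1.45 ± 0.21, limma adjusted p = 0.00205), where the passenger was lower.

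The 5 largest decreases of the ratio were those of miR-42 (from 2.52 to 0.520, -2.28 ± 0.20, limma adjusted p = 0.000249), miR-43 (from 1.11 to 0.296, -1.90 ± 0.27), miR-74 (from 6.11 to 1.95, -1.65 ± 0.24), miR-786 (from 6.60 to 2.46, -1.43 ± 0.34) and miR-48 (from 233 to 95.9, -1.28 ± 0.19). In miR-42 the 5p arm exceeded the 3p arm in each WT library and fell below it in each mutant library. In miR-43 the 3p arm was the more abundant in the 4 mutant libraries and in 2 of the 4 WT libraries. With the arms the study takes as guides, the called ratio changes of miR-42, miR-43 and miR-49 would be increases and that of miR-230 a decrease. Among the 94 hairpins, the guide alone was called higher in 13 and lower in 16, the passenger alone higher in 8 and lower in 8, both arms higher in 2 and lower in 5, and neither in 39. The ratio call of miR-786 was lost without matched hour 26 (adjusted p = 0.0822). The arms were called in opposite directions in 3 hairpins, with the guide lower and the passenger higher in miR-43 and miR-74 and the reverse in miR-51. For miR-51, the 3p arm stood at 378, 353, 372 and 410.0 normalised counts in WT and at 132, 148, 212 and 224 in ebax-1(tm2321), a difference of -1.08 ± 0.15 (limma adjusted p = 0.00602), beside the increase of its 5p arm.

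**Figure D4:**
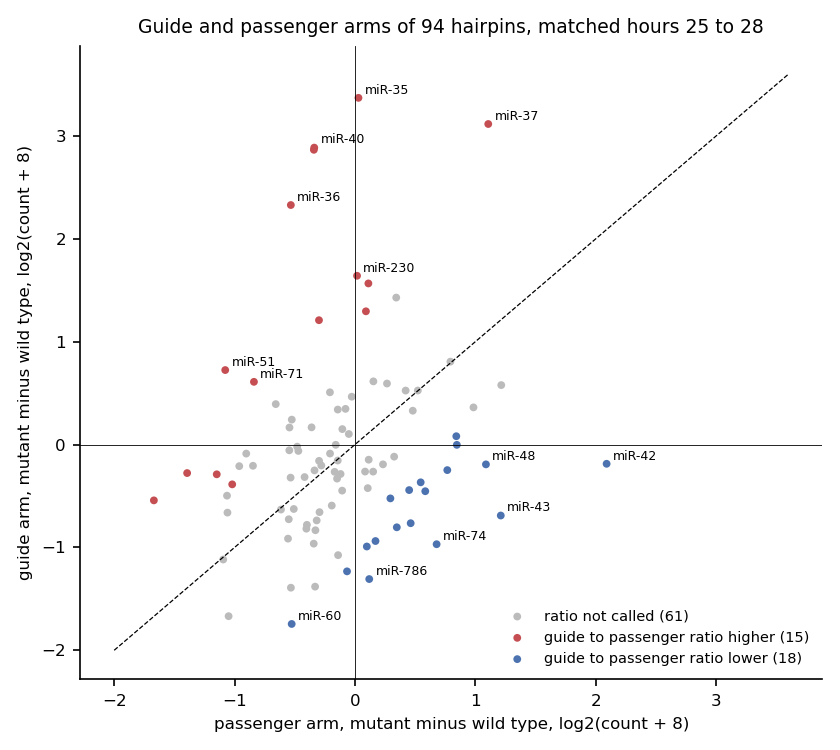
Strain difference of the guide (vertical axis) against that of the passenger (horizontal axis) of 94 hairpins, both as mutant minus wild type in log2 of normalised count plus 8, with a dashed line of equal difference. The 15 hairpins with a higher guide to passenger ratio (red) include miR-35 at 0.03 on the passenger axis, miR-40 at -0.34 and miR-36 at -0.53. The 18 with a lower ratio (blue) include miR-42, miR-43 and miR-48, whose passengers were higher.

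Whether the strain difference of these late hours departed from that of the 7 earlier matched hours (18 to 24, 14 other libraries) was tested as an interaction. Of the called late arms, 28 of the 35 higher and 56 of the 57 lower had an earlier mean difference of the same sign, as had 265 of all 384 arms. The difference between the windows was called in 13 of 406 arms (3.20%, limma interaction with matched hour as a block), 9 more positive and 4 more negative late. The mir-35 family was not among them, its late and earlier differences being 3.37 and 3.54 for miR-35-3p and 2.33 and 3.18 for miR-36-3p, nor was miR-235-3p (1.57 and 1.63). miR-243-3p went from a mean earlier difference of 0.02 to 1.21 late (change 1.19 ± 0.24, adjusted p = 0.0202). miR-78 went from -0.43 to 0.70 (1.13 ± 0.22, 0.0171), miR-48-3p from 0.17 to 1.09 (0.92 ± 0.14, 0.00637), miR-51-5p from -0.01 to 0.72 (0.74 ± 0.11, 0.00637) and miR-1018 from -0.06 to 0.60 (0.66 ± 0.15, 0.0291).

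In the other direction, miR-246, which promotes longevity in the worm, had a positive mean difference in the earlier hours. Its guide miR-246-3p went from 0.76 to -0.29 (change -1.04 ± 0.20, adjusted p = 0.0171). The late difference itself did not pass (limma adjusted p = 0.115) and was 0.47 at a lag of 4 h, and late it stood at 1331, 3165, 3749.5 and 5293 normalised counts in WT and at 1089, 2394, 2941 and 4876 in ebax-1(tm2321), rising in both. miR-2210-5p went from -0.51 to -1.67 (-1.16 ± 0.19, 0.0105), miR-8196a-3p from -0.74 to -1.64 (-0.91 ± 0.16, 0.0151) and miR-59-3p from 0.04 to -0.82 (-0.86 ± 0.17, 0.0171). miR-59-3p stood at 5673, 10892, 13749 and 18069.5 normalised counts in WT and at 2346, 5592, 11117 and 10872 in ebax-1(tm2321), so that it rose steeply in both strains and its late difference was lost at a lag of 4 h (limma adjusted p = 0.31). The count of 13 was 4 without matched hour 26 and 38 without hour 27, the pair with the deepest mutant library. When only the earlier hours 18 to 21, each 7 h before a late one, were set against them, 5 arms were called. miR-246-3p, miR-48-3p, miR-51-5p and miR-2210-5p were called in that fit too (adjusted p = 0.00131, 0.00275, 0.0413 and 0.0413), the last 3 also in each of the 4 fits without a late pair. The changes of miR-246-3p and miR-59-3p were called in 3 of those fits and those of miR-243-3p, miR-78 and miR-1018 in 2.

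**Figure D5:**
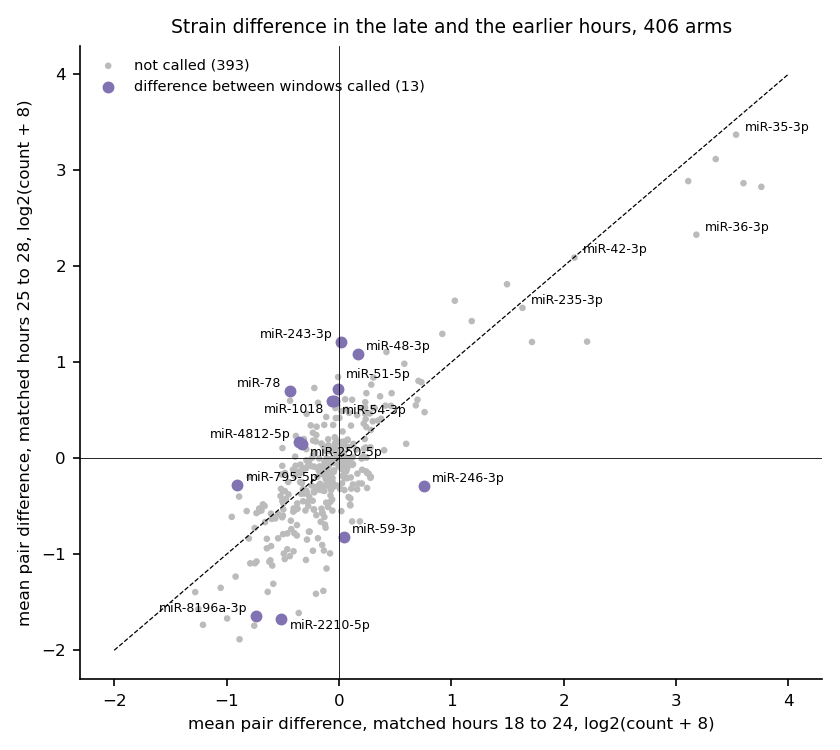
Mean pair difference of 406 arms in matched hours 25 to 28 (vertical axis) against matched hours 18 to 24 (horizontal axis), mutant minus wild type in log2 of normalised count plus 8, with a dashed line of equal difference. Of the mir-35 family, miR-35-3p, miR-37-3p, miR-40-3p and miR-42-3p lie to the upper right near the line. miR-36-3p, miR-38-3p, miR-39-3p and miR-41-3p lie further below it, with changes of -0.85, -0.93, -0.74 and -0.99 that were not called. The 13 arms whose difference changed between the windows (purple) include miR-243-3p, from 0.02 earlier to 1.21 late, and miR-246-3p, from 0.76 to -0.29.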

How the data were processed

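Small RNA libraries of WT and ebax-1(tm2321) larvae, 1 per strain and hour, were sequenced as single-end reads. Per the study's methods and the submitters' notes, the authors trimmed adapters, aligned reads to genome build ce10 with Bowtie through QuasR, and counted same-strand reads starting close to the annotated 5′ end of each miRBase mature arm. Their tool versions were not given in the sources used here. Reads that map to several loci were retained, so near-identical arms share reads. The authors deposited raw counts per arm and, separately, log2 values, which are counts divided by the library total, scaled to the mean total, plus a pseudocount of 8. Recomputing these from the counts reproduced every deposited log2 value within 5e-04. Every column was mapped to a sample by its name.

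The deposited log2 values of the 8 late libraries were fitted with limma 3.58.1 (R 4.3.3) on strain with matched hour as a block, leaving 3 residual degrees of freedom and 2.92 prior degrees of freedom. The 53 of 437 arms without a read in these libraries were not tested, and p-values were adjusted over all others by the Benjamini-Hochberg method at a threshold of 0.05. The log2 scale with a pseudocount of 8 understates changes of rare arms. The late window was set against the earlier hours by an interaction (9 residual degrees of freedom), and the log2 ratio of guide to passenger was fitted like the levels where both arms averaged at least 10 normalised counts. The study itself modelled the whole time course with a spline at an adjusted p of 0.01, which was not used for a window of 4 hours. The alternatives were other lags, TMM factors (edgeR 4.0.16), DESeq2 1.42.0 size factors, other pseudocounts, filters on low values, edgeR's quasi-likelihood and DESeq2's Wald test on the counts, a trended prior, a threshold of 0.01, no block, thinning to equal depth, and leaving out each pair. A pair of fits restricted to certain hours was added after the data had been seen. The steps were tested on simulated data.

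Pairs come from the lag the study read from mRNA. Over 213 arms averaging 50 or more normalised counts, libraries of the same matched hour deviated together from their strain means at r = 0.31, 0.425, 0.079 and 0.698 for hours 25 to 28. The highest correlation with a library of another matched hour was 0.211, 0.144, 0.271 and -0.132, so at hour 27 the same-hour library was not the closest.

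The arms named are members of miRNA families and tissue lists, the 10 largest called differences in each direction among arms with a mean of at least 50 and 1 sign in 4 of 4 pairs, up to 5 interaction calls and the 5 largest ratio changes each way. miR-34-5p, miR-253-3p, miR-79-3p and miR-70-3p were named after their values were seen. Members and lists were chosen with earlier results of these data known. Hairpin positions are those of the WBcel235 annotation, matched by name for 219 of 226 hairpins and not converted from the authors' build. Intervals and limits on counts cover counting error only.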

Additional observations from a re-analysis of the deposited data

Results flagged for a closer look

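Among 152 groups of 4 values examined for the arms described above, 8 held a value far from the other 3, about as many as the 1 in 20 that chance gives. In WT, miR-39-3p at 25 h read 3959 normalised counts, with the next value at 2911. At the same hour miR-788-5p read 2205 (next 1311), miR-795-3p 586.5 (next 512) and miR-55-3p 8469 (next 5957). At 28 h, miR-58a-5p read 7033 in WT, with the next value at 4945. In ebax-1(tm2321) the library of 30 h gave 37581 for miR-229-5p (next 29811) and 3764 for miR-74-3p (next 2213). miR-794-3p read 1.364 in 1 mutant library, that of 31 h, and 0 in the others, under the counting limit.

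The strain difference changed between the earlier and the late matched hours, by the limma interaction, for 10 of the arms described. It became more positive late by 1.189 for miR-243-3p (adjusted p = 0.0202), 1.132 for miR-78 (0.0171), 0.9208 for miR-48-3p (0.00637), 0.7352 for miR-51-5p (0.00637), 0.6582 for miR-1018 (0.0291) and 0.6382 for miR-54-3p (0.0273). It became more negative late, with changes of -1.156 for miR-2210-5p (adjusted p = 0.0105), -1.045 for miR-246-3p (0.0171), -0.9056 for miR-8196a-3p (0.0151) and -0.8596 for miR-59-3p (0.0171). The mutant libraries of 28, 29 and 31 h, which are shallow and stood low in miR-62 and miR-58a-3p, lie in the late window alone, and their part in these changes was not tested beyond the fits without a pair given above. In the earlier window the deeper mutant library of 24 h read 865744 for miR-58a-3p, near the value of 31 h but above those of 28 and 29 h.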

How the results depend on the processing

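The 92 calls (35 higher, 57 lower) became 55 (23 and 32) with a pseudocount of 1 and 41 (18 and 23) at a threshold of 0.01. The higher calls numbered 20 at a lag of 1 h, 17 at 0 h and 54 with DESeq2's Wald test. Matched hour 27 alone, added after the data had been seen, gave 33 calls (16 and 17). Leaving out 1 pair gave 44 to 107 calls, 18 to 40 higher and 26 to 67 lower, with 4 to 38 calls for the change between windows and 18 to 36 for the ratio. The fits without a pair and that of hour 27 hold fewer hours, though some of those without a pair gave more calls. The cause of these changes was not tested for any setting. Under every other alternative run the 3 counts of late calls stayed within 1.5 times. Without the block for paired hours there were 81 late calls, 32 ratio calls and 5 changes between windows, the latter also numbering 5 against hours 18 to 21 alone. The calls kept numbered 62 at a lag of 2 h, 76 at 4 h, 83 with TMM factors, 76 with DESeq2 size factors and 79 with edgeR's quasi-likelihood test.

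Of the 68 called arms described, 5 turned sign in any alternative, all at a lag of 0 or 1 h. At 0 h miR-43-5p gave 0.034, miR-71-3p 0.21, miR-788-5p 0.21, lin-4-3p -1.19 (-0.67 at 1 h) and miR-58a-5p -0.059. Arms that were not called also turned, with miR-247-3p at 0.60 (0 h), 0.15 (1 h), 0.082 (DESeq2 size factors), 0.0084 (edgeR's quasi-likelihood test), 0.076 (DESeq2's Wald test), -0.36 to 0.23 (leaving out 1 pair), 0.42 (without hours 25 and 26, also added) and 0.59 (hour 27 alone). let-7-5p gave -0.075 (0 h), -0.016 (without hours 25 and 26) and -0.21 (hour 27 alone), miR-58a-3p 0.34 (hour 27 alone) and miR-246-3p 0.47 (lag of 4 h). With 1 library per strain and hour, the precision is set by the spread between hours, and arms under about 5.04 normalised counts cannot be told from 0.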
